A study of Homo sapiens with 6 samples.

Results

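The BCL2 family sets the mitochondrial threshold of programmed cell death, and 10 of its genes are described here in H226, a human lung squamous carcinoma line. The 10 genes were chosen by name, with earlier results of these data known. They are the pore-forming effectors BAX and BAK1 and the anti-apoptotic genes BCL2L1 (BCL-XL) and MCL1, with 1 further class. That class is the BH3-only genes BBC3 (PUMA), PMAIP1 (NOXA), BID, BCL2L11 (BIM), BIK and BMF. All 10 had a probe set that named no other gene, and each had only 1, so 10 of the 18404 genes of the array were taken. RNA of 3 groups with 2 replicates each was hybridised to 6 Affymetrix HuGene 1.0 ST arrays. The Nutlin-3 cells received 10 µM Nutlin-3 for 12 h with an shRNA against p63 switched off. In the shp63 ON cells that shRNA was switched on by doxycycline, at 1 µg/mL over 48 h. The control cells were untreated with the shRNA off. The cells of all 3 groups are H226 cells made to carry the shRNA, and whether they are 1 clone is not given in the sources used here. The depth of the knockdown was not analysed here, and no array held another shRNA or doxycycline alone, so that the knockdown, the doxycycline and its longer duration cannot be told apart.

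In this pathway, BAX and BAK1 oligomerise in the outer mitochondrial membrane and release cytochrome c. Anti-apoptotic members bind and restrain them, and BH3-only proteins either neutralise those guardians or activate BAX and BAK1 directly. The tumour suppressor p53 is known to activate BAX, BBC3 and PMAIP1, and Nutlin-3 stabilises p53 by blocking its ubiquitin ligase MDM2. p63, a relative of p53 that maintains basal and squamous epithelia, can bind many of the same DNA sites.

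The promoter windows of the members were read for the p53 consensus decamer, the 10-base unit that occurs as a pair in p53 sites, because Nutlin-3 acts through p53. The windows are those of RefSeq on GRCh38.p14, with 250 bases before and 50 after each gene start, and they gave 14 windows for 8 of the 10 members. BIK and MCL1 had no entry. The decamer reads the same on either strand, so 1 scan covers both. A full match was in 2329 of 35116 windows (6.63%) and in 1 of the 14 member windows, that of BAK1, at position -73 relative to the gene start (chr6:33580330-33580359, minus strand, for the stretch shown). With 1 mismatch allowed outside the fixed C and G of the CNNG core, a match was in 45.1% of all windows. It was in 7 of the 14 member windows, those of 6 members, which is near that share. The matching windows of BID overlap and hold the same stretch (chr22:17774014-17774043), so the 7 counts that match more than once. The BAX window held none under either rule. Windows of BCL2L1, BCL2L11 and BID also held a match with 1 mismatch, and these are not shown. The stretch of BAK1 is shown for its full match. Those of PMAIP1 (chr18:59899801-59899830, plus strand, 1 mismatch, position -185) and BBC3 (chr19:47232821-47232850, minus strand, 1 mismatch, position -173) are shown because p53 is known to activate both genes. Neither of these genes passed with Nutlin-3. The matching 10 bases are in capitals.
BAK1: aaagtgggcgGGACATGCTCctgggcctgg
PMAIP1: cgcgggtcggGAGCGTGTCCgggcaggtcg
BBC3: acttggaggcAGTCAAGTTTgagaagtctg
A match describes these letters only, and it was not a measure of binding. Each stretch shown holds a lone decamer, and none was shown to be a p53 site of its gene. A pair of full matches 0 to 13 bases apart was in 10 of 35116 windows (0.0285%), and no member window held such a pair.

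Values are log2 intensities, on which a difference of 1 is a doubling of the signal, and they are compared for 1 gene across arrays and not between genes. Group differences were tested with limma in 1 fit across all 18404 genes, and a gene passed at a Benjamini-Hochberg adjusted p under 0.05. An exact permutation test of 2 arrays against 2 has 0.333 as its smallest two-sided p, so no such test is given. Nothing in the labels shows the replicates to be separate cultures, and p-values then measure only the spread between these arrays. Replicate arrays correlated across genes at 0.997 to 0.998. Over the 6 arrays, the 8 markers of squamous epithelium read from 6.69 (PKP1) to 12.4 (KRT5), and the 6 of mesothelium from 5.76 (LRRN4) to 10.5 (BNC1). The 7 fibroblast markers read from 3.85 (LUM) to 8.40 (COL1A1), the 6 of leukocytes from 4.24 (PTPRC) to 10.0 (CD68), and the 6 of endothelium from 4.43 (TEK) to 9.21 (CDH5). Levels of different probe sets are not ranked here, and these values alone do not settle the cell type.

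With Nutlin-3, the effectors BAX and BAK1 and the anti-apoptotic genes BCL2L1 and MCL1 rose together, BMF fell, and the other BH3-only genes did not pass. BAX rose 2.32-fold and the other 3 rises were smaller, from 1.32-fold to 1.44-fold. Thus 5 of 10 members passed, 4 higher and 1 lower, against 18.5% of all genes (9.64% higher and 8.89% lower). Because the members were chosen with earlier results of these data known, this count is not independent support. The median log2 fold change was 0.13 over the members and -0.0025 over all genes, and the median size of change was 0.36 and 0.12. The Nutlin-3 and control arrays did not overlap for 9 of 10 members, against 60.5% of all genes. RNA came from whole cultures, so a change in every cell cannot be told apart from a change in the share of cells that carry the transcript.

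BAX encodes the cytosolic effector that moves to mitochondria on activation. Its log2 intensity was 11.02 and 10.92 on the Nutlin-3 arrays, 9.77 and 9.86 on the shp63 ON arrays, and 9.71 and 9.80 on the control arrays. The Nutlin-3 pair stood alone, more than 1 log2 unit above every other array, while the shp63 ON and control arrays overlapped. The log2 fold change with Nutlin-3 was 1.21 (SE 0.07, limma adjusted p = 4.55e-05), which placed BAX at percentile 99.5 of all genes ordered by change. In shp63 ON against control it was 0.06 (SE 0.07, limma adjusted p = 0.566), with a 95% interval of -0.11 to 0.23.

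BAK1 encodes the effector that resides in the mitochondrial membrane. It stood at 10.54 and 10.49 with Nutlin-3, 10.36 and 10.05 in shp63 ON, and 9.97 and 10.11 in control. The Nutlin-3 arrays were above all others, and the shp63 ON arrays lay far apart, 1 of them between the other groups and 1 within the control range. The rise with Nutlin-3 was 1.39-fold (log2 fold change 0.47, SE 0.11, limma adjusted p = 0.0215). The call was lost when any 1 Nutlin-3 or control array was left out, with adjusted p of 0.0814 and 0.0633 without Nutlin-3 replicate 1 and 2, and 0.139 and 0.0598 without control replicate 1 and 2 (range over alternatives 0.0026 to 0.171).

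BBC3, the BH3-only gene PUMA that binds every anti-apoptotic member, did not follow BAX. It read 7.60 and 7.50 with Nutlin-3, 8.42 and 8.11 in shp63 ON, and 7.69 and 7.70 in control. Its Nutlin-3 arrays were the lowest of the 6 and its shp63 ON arrays the highest, with no overlap between groups. Nutlin-3 gave a log2 fold change of -0.15 (SE 0.10, limma adjusted p = 0.364) with a 95% interval of -0.38 to 0.09, so the interval reached no higher than 1.06-fold. In shp63 ON it rose 1.48-fold (log2 fold change 0.57, SE 0.10, limma adjusted p = 0.00501).

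PMAIP1, the BH3-only gene NOXA that binds chiefly MCL1, read 8.39 and 8.43 with Nutlin-3, 8.36 and 8.19 in shp63 ON, and 8.01 and 8.19 in control. The Nutlin-3 arrays were the highest 2, whereas shp63 ON and control overlapped slightly. Its log2 fold change with Nutlin-3 was 0.31 (SE 0.09), just short of the threshold (limma adjusted p = 0.0507, range over alternatives 0.0234 to 0.264), and it passed in 3 of 17 alternatives. In shp63 ON the log2 fold change was 0.17 (SE 0.09, limma adjusted p = 0.162).

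**Figure D1:**
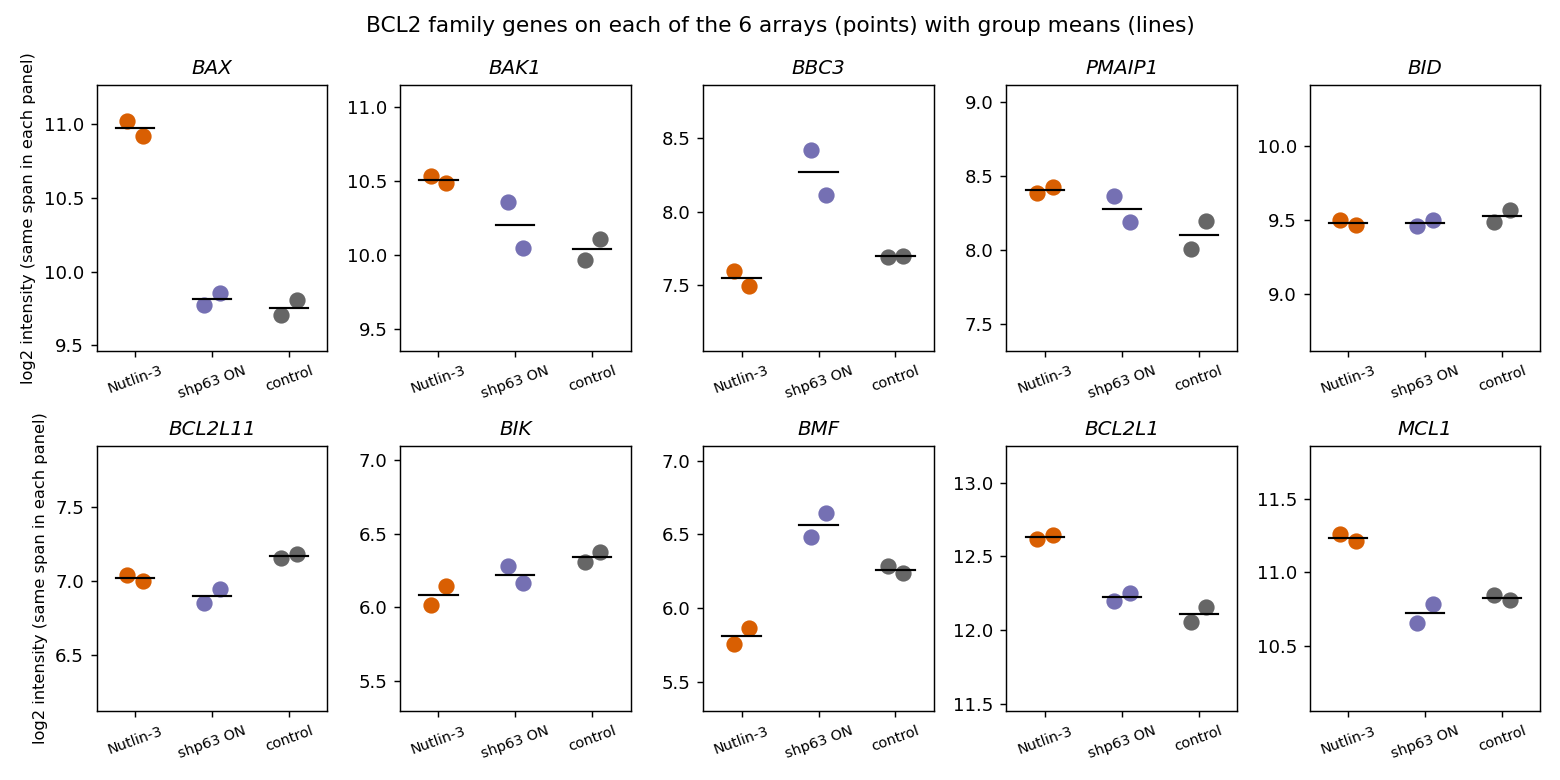
Log2 intensity of each BCL2 family gene on the 2 Nutlin-3, 2 shp63 ON and 2 control arrays (points), with group means (lines) and the same vertical span in every panel. BAX, BCL2L1 and MCL1 stand highest with Nutlin-3, while BBC3 and BMF are lowest with Nutlin-3 and highest in shp63 ON.

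Of the remaining BH3-only genes BMF, BCL2L11, BIK and BID, only BMF passed in both comparisons with control. BMF, which is held on the cytoskeleton in adherent cells and takes part in death on detachment, read 5.76 and 5.87 with Nutlin-3, 6.48 and 6.65 in shp63 ON, and 6.29 and 6.24 in control. The 3 groups did not overlap, with Nutlin-3 below control and shp63 ON above it. The log2 fold change was -0.45 with Nutlin-3 (SE 0.08, limma adjusted p = 0.00771) and 0.30 in shp63 ON (SE 0.08, limma adjusted p = 0.0218). Genes with a mean log2 intensity between 6 and 7, as BMF has, were shifted up by a median of 0.17 in shp63 ON, and 34.7% of them passed as higher. After cyclic loess normalization the shp63 ON value of BMF was 0.15 and did not pass (limma adjusted p = 0.207), nor did it after quantile normalization (0.20, limma adjusted p = 0.0928).

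BCL2L11 encodes BIM, a BH3-only protein that activates BAX and BAK1 directly. It read 7.04 and 7.00 with Nutlin-3, 6.85 and 6.94 in shp63 ON, and 7.15 and 7.18 in control. Control was the highest group and shp63 ON the lowest, with no overlap. The fall passed in shp63 ON (log2 fold change -0.27, SE 0.06, limma adjusted p = 0.0157) and did not with Nutlin-3 (-0.15, SE 0.06, limma adjusted p = 0.154). The shp63 ON call was lost without control replicate 1 (limma adjusted p = 0.0632), control replicate 2 (0.0874) or shp63 ON replicate 1 (0.0849), within a range over alternatives of 0.00424 to 0.0874.

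BIK, a BH3-only protein of the endoplasmic reticulum, read 6.01 and 6.15 with Nutlin-3, 6.28 and 6.16 in shp63 ON, and 6.31 and 6.38 in control. Its Nutlin-3 arrays were the lowest. The log2 fold change with Nutlin-3 was -0.26 (SE 0.08, limma adjusted p = 0.0512), and in shp63 ON it was -0.12 (SE 0.08, limma adjusted p = 0.244). BID, which caspase-8 cleaves to link death receptors to mitochondria, read 9.50 and 9.46 with Nutlin-3, 9.46 and 9.50 in shp63 ON, and 9.49 and 9.57 in control. All its groups overlapped, and it was the flattest member, with log2 fold changes of -0.05 (95% interval -0.20 to 0.10) with Nutlin-3 and -0.05 (95% interval -0.20 to 0.10) in shp63 ON.

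Both anti-apoptotic members rose with Nutlin-3. BCL2L1, whose long isoform BCL-XL restrains BAX and BAK1, read 12.62 and 12.64 with Nutlin-3, 12.20 and 12.25 in shp63 ON, and 12.06 and 12.16 in control. The Nutlin-3 arrays stood apart from the rest, and shp63 ON lay slightly above control without overlap. The Nutlin-3 rise was 1.44-fold (log2 fold change 0.52, SE 0.07, limma adjusted p = 0.00178), and the shp63 ON value of 0.12 (SE 0.07) did not pass (limma adjusted p = 0.2). The gene also gives a short pro-apoptotic isoform, and 1 value per gene cannot separate the 2 isoforms.

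MCL1, a short-lived guardian that binds BAK1, BIM and NOXA, read 11.26 and 11.21 with Nutlin-3, 10.66 and 10.79 in shp63 ON, and 10.85 and 10.81 in control. The Nutlin-3 arrays were highest and the shp63 ON arrays lowest, with no overlap. The Nutlin-3 rise was 1.32-fold (log2 fold change 0.41, SE 0.07, limma adjusted p = 0.0069), and the call was lost with control replicate 2 left out (limma adjusted p = 0.0533, from 0.000191 to 0.0655 over all alternatives). In shp63 ON the log2 fold change was -0.11 (SE 0.07, limma adjusted p = 0.262).

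The Nutlin-3 changes of BAX and BCL2L1 passed in each of 17 alternatives. Those of MCL1 and BMF passed in 15 and that of BAK1 in 12. These counts hold repeats, since leaving out either shp63 ON array gave the same fit as the Nutlin-3 and control groups alone. Averaging probe sets could not change the log2 fold change of these members. An unadjusted analysis of variance is also among the 17, and BAK1 passed there on an unadjusted p of 0.0435. Without control replicate 1 or control replicate 2 the count of members that passed was 3 each, with adjusted p for BMF of 0.0640 without control replicate 1.

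With the p63 shRNA on, 3 of 10 members passed against control, BBC3 and BMF higher and BCL2L11 lower, against 36.2% of all genes (19.7% higher and 16.5% lower). That share is near the background. Members had a median log2 fold change of 0.09 and all genes of 0.04, and the median size of change was 0.14 over the members and 0.17 over all genes. The shp63 ON and control arrays did not overlap for 6 of 10 members, against 71.7% of all genes. Neither effector and neither anti-apoptotic gene passed, and their 95% intervals lay within -0.27 to 0.42. For BAK1 a single array set the value: its log2 fold change of 0.17 (limma adjusted p = 0.257) was 0.32 and passed without shp63 ON replicate 2 (0.0462), and was 0.01 without shp63 ON replicate 1 (0.943). The count was 1 without control replicate 1 or control replicate 2, where BBC3 alone passed, and BMF then had adjusted p of 0.0710 and 0.113. BMF also did not pass without shp63 ON replicate 2 (limma adjusted p = 0.110). In the adjusted analysis of variance BBC3 did not pass (adjusted p = 0.0859), and BCL2L11 was the 1 member that did. After cyclic loess normalization 3 members passed, BBC3 higher and BCL2L11 and BIK lower, and after quantile normalization 2 passed, BBC3 higher and BCL2L11 lower.

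**Figure D2:**
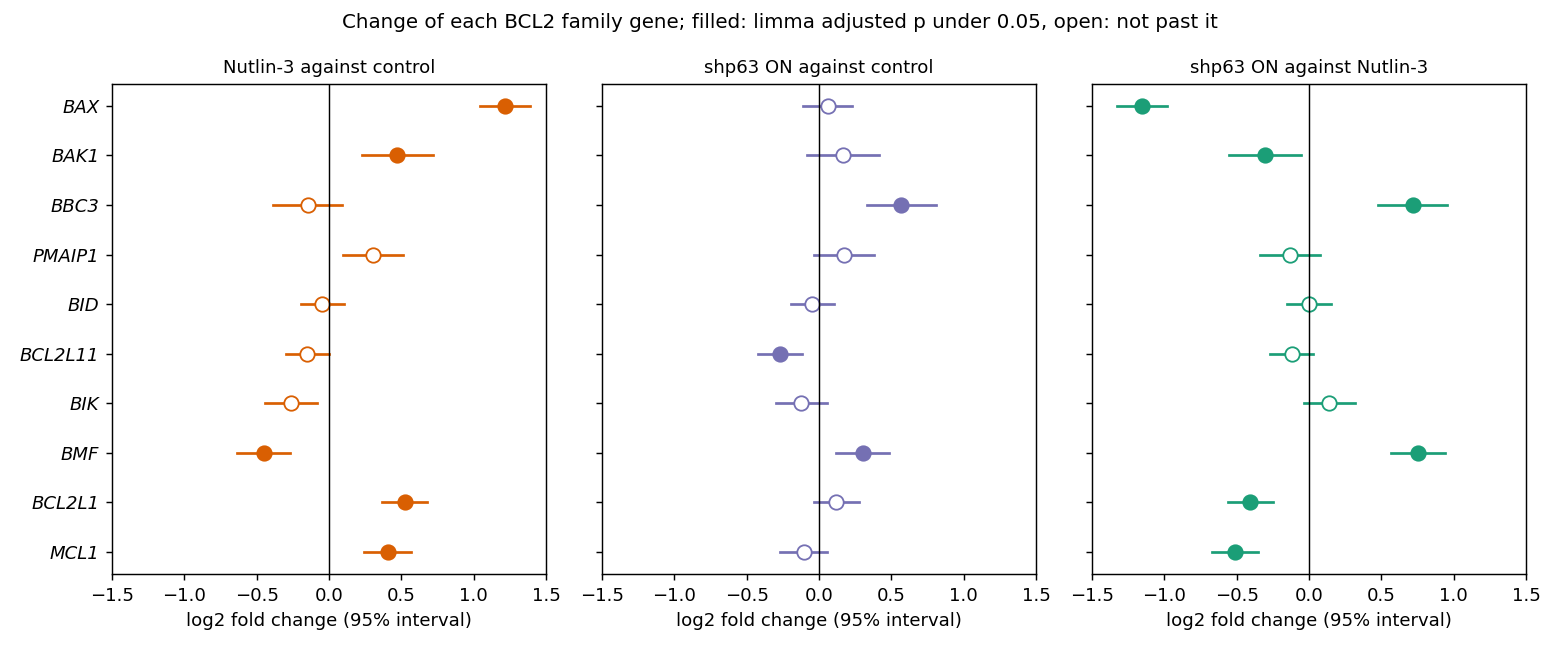
Log2 fold change of each gene with limma's 95% interval for the 2 comparisons with control and for shp63 ON against Nutlin-3 (3 panels); filled points passed at an adjusted p under 0.05. BAX reaches 1.21 with Nutlin-3, and BBC3 (0.57) leads in shp63 ON.

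Set directly against each other, shp63 ON and Nutlin-3 differed in 6 of 10 members, against 51.5% of all genes (27.5% higher and 24.0% lower in shp63 ON). The shp63 ON and Nutlin-3 arrays did not overlap for 9 of 10 members, against 76.7% of all genes. BBC3 and BMF were higher in shp63 ON, with log2 fold changes of 0.72 (SE 0.10, limma adjusted p = 0.000966) and 0.75 (SE 0.08, limma adjusted p = 0.000255). BAX, MCL1, BCL2L1 and BAK1 were lower in shp63 ON. BAX differed most, at -1.16 (SE 0.07, limma adjusted p = 3.1e-05), then MCL1 at -0.51 (SE 0.07), BCL2L1 at -0.41 (SE 0.07) and BAK1 at -0.31 (SE 0.11, limma adjusted p = 0.0441). BAK1 failed in 10 of 17 alternatives, among them without shp63 ON replicate 2 (limma adjusted p = 0.228), Nutlin-3 replicate 1 (0.140), Nutlin-3 replicate 2 (0.0917) or either control array (0.0594), and the other 5 passed in all 17. PMAIP1, BID, BCL2L11 and BIK did not pass, with log2 fold changes between -0.13 and 0.14. BCL2L11 did pass as lower in shp63 ON after quantile normalization (-0.25, limma adjusted p = 0.0166) and cyclic loess normalization (-0.27, limma adjusted p = 0.0112). The 2 comparisons with control share the control arrays, and each is given with its own values.

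By level, the order of the groups was Nutlin-3, then shp63 ON, then control for BAX, BAK1, PMAIP1 and BCL2L1, with shp63 ON and control not differing past the threshold in any of them, and no pair of groups doing so for PMAIP1. MCL1 ran Nutlin-3, control, shp63 ON, again with the lower neighbours not differing past the threshold. BBC3 and BMF ran shp63 ON, control, Nutlin-3, and for BBC3 control and Nutlin-3 did not differ past the threshold, whereas for BMF every neighbouring pair did. BCL2L11 and BIK had control at the top. With the values as deposited, the middle group for BCL2L11, Nutlin-3, differed past the threshold from neither of its neighbours. For BIK and BID no pair of groups differed past the threshold with those values.

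**Figure D3:**
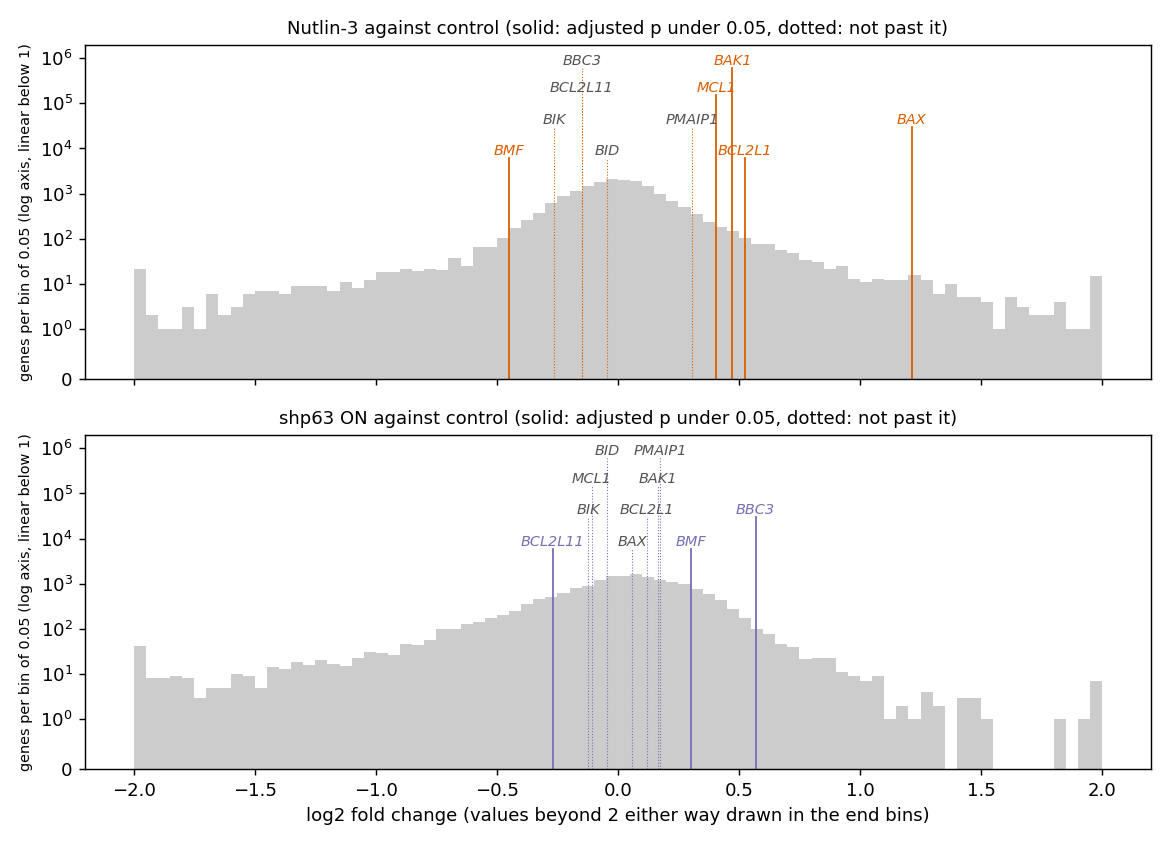
Number of genes per bin of log2 fold change (grey bars, log axis) for Nutlin-3 (upper panel) and shp63 ON (lower panel), each against control, with the 10 members as lines. BAX lies at percentile 99.5 of all genes with Nutlin-3, and the members lie between percentiles 14.5 and 98.1 in shp63 ON.

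Symbols starting with MIR, SNOR, SCARNA, LOC, LINC, RNU, RNA or KIAA, ending in -AS and a digit, or holding orf were left out of a search for similar profiles. Among the other genes, those with the most similar profile were named for each member that passed against control. Similarity was the smallest Euclidean distance over the 6 arrays between values centred on the control mean. For BAX they were ZMAT3 (distance 0.13), DOCK8 (0.17) and SUSD6 (0.19), whose log2 fold changes with Nutlin-3 were 1.25, 1.19 and 1.16. For BAK1 they were MAGED2 (0.09), GRN (0.15) and ARVCF (0.17). S100A14, SMAD3 and SLC39A11 lay nearest to BCL2L1 (0.08 each), and COG6, QTRT1 and SEC31A nearest to MCL1 (0.05, 0.05 and 0.06). For BBC3 they were ASPDH, ZMAT4 and SLC2A11 (0.13, 0.13 and 0.14), for BMF IL6, HAPLN4 and FAT4 (0.08, 0.08 and 0.09), and for BCL2L11 TULP3, AAAS and PCMT1 (0.05, 0.05 and 0.06). Of the 21 neighbours, 9 were again among the nearest 3 after quantile normalization and 9 after cyclic loess.

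The wider apoptosis machinery was read from 5 lists, chosen with earlier results of these data known, against the same 18.5% and 36.2% of all genes. Their median log2 fold changes with Nutlin-3 and in shp63 ON were 0.04 and 0.01 for other BCL2 family genes. The medians were -0.00069 and 0.03 for mitochondrial apoptosis effectors and caspases, and -0.05 and -0.15 for inhibitors of apoptosis. For regulators of BCL2 family proteins they were 0.00054 and -0.02. Of 17 other BCL2 family genes measured, 3 rose and 3 fell with Nutlin-3 and 11 did not pass. BNIP3, a mitophagy receptor with a BH3-like stretch, rose (log2 fold change 0.59, SE 0.07), as did the anti-apoptotic BCL2A1 (0.41, SE 0.10). The founding anti-apoptotic gene BCL2 fell, with 5.99 and 5.99 with Nutlin-3, 6.22 and 6.14 in shp63 ON and 6.40 and 6.51 in control (-0.46, SE 0.07, limma adjusted p = 0.00355), and so did the BH3-only gene HRK (-0.42, SE 0.09, limma adjusted p = 0.0158). In shp63 ON 2 rose and 3 fell of the 17. HRK rose there (0.41, SE 0.09, limma adjusted p = 0.0103), with the BAX-binding MOAP1 (0.29, SE 0.09), while BNIP1 (-0.33, SE 0.08) and BNIP2 (-0.31, SE 0.07) fell. HRK, like BMF, thus fell with Nutlin-3 and rose in shp63 ON. The Nutlin-3 count was 2 without control replicate 1, control replicate 2 or Nutlin-3 replicate 1, where the calls of HRK (limma adjusted p = 0.0599 to 0.109) and BCL2A1 (0.0819 to 0.144) were lost, and the shp63 ON count was 3, 1, 3 and 2 without control replicate 1, control replicate 2, shp63 ON replicate 1 and shp63 ON replicate 2. Each shp63 ON call named here was lost without some array: HRK without control replicate 2 (0.0693) or shp63 ON replicate 1 (0.0627), BNIP2 without control replicate 1 (0.0627) or shp63 ON replicate 1 (0.0552), and BNIP1 (0.0647 to 0.0920) and MOAP1 (0.0865 to 0.221) without control replicate 1, control replicate 2 or shp63 ON replicate 2. MOAP1 was also lost after median centring or cyclic loess normalization.

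From the list of mitochondrial apoptosis effectors and caspases, 17 genes were measured, of which 2 rose and 2 fell with Nutlin-3. APAF1, the scaffold of the apoptosome, rose (0.76, SE 0.07, limma adjusted p = 0.000399), reading 8.18 and 8.21 with Nutlin-3, 7.38 and 7.42 in shp63 ON and 7.51 and 7.35 in control. CASP8, the initiator caspase of death receptors, rose (0.55, SE 0.06), and CASP2, an initiator caspase linked to DNA damage, fell (-0.69, SE 0.06), as did the mitochondrial nuclease ENDOG (-0.27, SE 0.07). The ENDOG call was lost in 10 of 17 alternatives, among them without control replicate 1, control replicate 2, Nutlin-3 replicate 1 or either shp63 ON array (limma adjusted p = 0.0580 to 0.195). In shp63 ON 2 rose and 2 fell. CASP2 (-0.39, SE 0.06) and PARP1, a caspase substrate and DNA repair enzyme (-0.51, SE 0.10), fell, whereas CASP9, the apoptosome caspase (0.42, SE 0.10), and SEPTIN4 (0.32, SE 0.10), which encodes the XIAP antagonist ARTS, rose. Cytochrome c itself, CYCS, had log2 fold changes of -0.09 (SE 0.07) with Nutlin-3 and 0.16 (SE 0.07) in shp63 ON, and did not pass. The shp63 ON count was 2 without control replicate 1 and 1 without control replicate 2, and 7 after quantile normalization. With 1 array left out at a time, CASP2 kept its call, PARP1 lost it without control replicate 2 (limma adjusted p = 0.0509), CASP9 without control replicate 1, control replicate 2 or shp63 ON replicate 1 (0.0630 to 0.0917), and SEPTIN4 without control replicate 1, control replicate 2 or shp63 ON replicate 2 (0.0944 to 0.194). SEPTIN4 was also lost under each of the 3 other normalizations and in the analysis of variance. Its adjusted p reached 0.263 over all 17 alternatives.

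Of 6 inhibitor of apoptosis genes measured, 1 fell with Nutlin-3 and none rose in limma. It was BIRC5, survivin, which also serves in mitosis (-0.50, SE 0.07, limma adjusted p = 0.00227). In shp63 ON BIRC5 (-0.45, SE 0.07) and BIRC2, cIAP1 (-0.26, SE 0.07), fell, and BIRC7 (0.32, SE 0.07) rose. With the probe sets of a gene averaged, BIRC5 passed in neither comparison, and the shp63 ON count of 3 was 1 without control replicate 1 and 1 after cyclic loess normalization, where BIRC7 did not pass (limma adjusted p = 0.0604 and 0.0709). BIRC2 lost its call whichever 1 control or shp63 ON array was left out (0.0757 to 0.143), and after quantile or cyclic loess normalization.

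Among 18 regulators of BCL2 family proteins, 3 rose and 3 fell with Nutlin-3. FBXW7, an F-box protein that brings MCL1 and others to a ubiquitin ligase, changed most, reading 8.87 and 8.69 with Nutlin-3, 6.76 and 7.05 in shp63 ON and 7.26 and 7.32 in control (1.49, SE 0.11, limma adjusted p = 1e-04). SFN, 14-3-3 sigma, which can sequester BAX (0.81, SE 0.07), and the kinase MAPK8, JNK1, whose known substrates include BIM and BMF (0.44, SE 0.07), also rose. DYNLL2, the light chain that tethers BMF to myosin motors, fell (-0.26, SE 0.06). In shp63 ON 1 rose and 4 fell. SFN (-0.60, SE 0.07), FBXW7 (-0.38, SE 0.11) and DYNLL1 (-0.31, SE 0.10), the dynein light chain that tethers BIM, were lower. The kinase PIM3 (0.28, SE 0.07) was higher. With the probe sets of a gene averaged, DYNLL1 did not pass. The Nutlin-3 count of 6 was 2 and 3 without control replicate 1 and 2, and 3 without Nutlin-3 replicate 2, without either shp63 ON array or with the replicate block, and DYNLL2 lost its call in 10 of 17 alternatives, among them those that left out any 1 of the 6 arrays (limma adjusted p = 0.0513 to 0.181). MAPK8 lost its call without control replicate 1 (0.0519). The shp63 ON count of 5 was 2, 1, 2 and 2 without control replicate 1, control replicate 2, shp63 ON replicate 1 and shp63 ON replicate 2. FBXW7 there did not pass without control replicate 1, control replicate 2 or shp63 ON replicate 1 (0.0847 to 0.141), PIM3 without control replicate 2 or either shp63 ON array (0.0572 to 0.0964), and DYNLL1 lost its call whichever 1 control or shp63 ON array was left out (0.100 to 0.176) and after quantile or cyclic loess normalization.

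The last list was, like the others, chosen with earlier results of these data known, so its count is not independent support. Of 10 other apoptosis regulators linked to p53, 5 rose with Nutlin-3 and none fell in limma, with a median log2 fold change of 0.55. They included PIDD1, the platform that activates CASP2 (1.77, SE 0.10), the stress protein TP53INP1 (1.37, SE 0.06), and the death receptors FAS (1.27, SE 0.06) and TNFRSF10B (1.09, SE 0.06). FAS read 10.93 and 10.90 with Nutlin-3, 9.28 and 9.29 in shp63 ON and 9.62 and 9.66 in control. In shp63 ON 1 rose and 2 fell, with a median of -0.02. FAS (-0.35, SE 0.06) and the exonuclease AEN (-0.29, SE 0.08) fell, and TP53BP2, which encodes the p53 partner ASPP2, rose (0.21, SE 0.06). FAS passed in all 17 alternatives of either comparison, and the shp63 ON count was 1 without control replicate 1 or shp63 ON replicate 2. AEN did not pass without control replicate 1, control replicate 2 or shp63 ON replicate 2 (limma adjusted p = 0.0976 to 0.123) or after quantile or cyclic loess normalization, and TP53BP2 lost its call whichever 1 control or shp63 ON array was left out (0.0839 to 0.177).

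**Figure D4:**
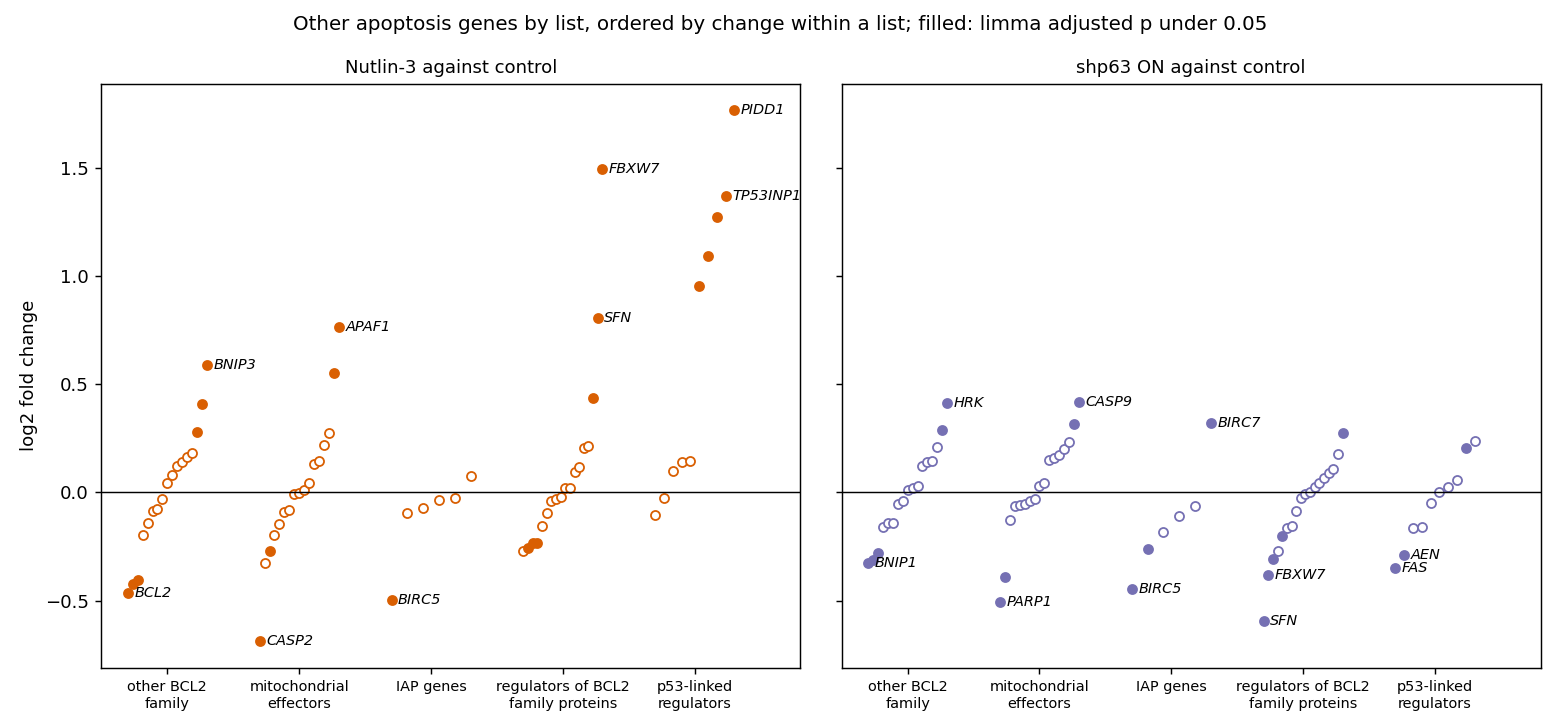
Log2 fold change of every measured gene of the 5 lists for Nutlin-3 (left) and shp63 ON (right), each against control, ordered by size within a list; filled points passed at an adjusted p under 0.05. PIDD1 (1.77) and FBXW7 (1.49) lead with Nutlin-3, and SFN (-0.60) has the largest change of the lists in shp63 ON.

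Some markers of squamous epithelium differed between groups, in both directions. Their mean log2 intensity over 8 genes was 10.32 to 10.34 with Nutlin-3, 9.73 to 9.79 in shp63 ON and 9.90 to 9.92 in control. With Nutlin-3 DSG3, KRT15 and SFN rose, EPCAM fell and the other 4 did not pass, and in shp63 ON KRT15 and PKP1 rose and KRT5, DSG3 and SFN fell. The means of 6 leukocyte markers were 6.63 to 6.69 with Nutlin-3, 6.81 in both shp63 ON arrays and 6.53 to 6.54 in control, with 2 and 3 of them higher with Nutlin-3 and in shp63 ON and PTPRC passing in neither comparison. Mesothelium markers averaged 7.52 to 7.53 with Nutlin-3, 7.60 to 7.65 in shp63 ON and 7.44 to 7.51 in control, with 1 higher and 1 lower with Nutlin-3 and 3 higher and 1 lower in shp63 ON. Endothelium markers averaged 5.84 to 5.85 with Nutlin-3, 6.12 to 6.21 in shp63 ON and 5.93 to 6.03 in control, with 1 higher and 1 lower with Nutlin-3 and 2 higher in shp63 ON. Fibroblast markers averaged 5.61 to 5.67 with Nutlin-3, 5.75 to 5.78 in shp63 ON and 5.64 to 5.72 in control, with 2 higher in shp63 ON. The part of these shifts in the changes of the BCL2 family genes was not tested.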

How the data were processed

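RNA of 6 H226 samples was hybridised to HuGene 1.0 ST arrays, per the labels. The authors deposited log2 probe set intensities. The log2 scale was read from the values (2.94 to 14.9), and array medians of 6.57 to 6.70 were kept as deposited. Partek is named in the submitters' processing notes, with no version, and no source used here gives the background correction, normalization or probe summary. Precision is limited by the number of arrays, since no reads were counted.

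Of 32321 probe sets, 19158 named 1 gene in the platform annotation, 1388 several and 11775 none. The probe set with the highest mean stood for each of 18404 genes, and a match of Entrez identifiers to RefSeq changed 0 symbols. No dim gene was removed. limma 3.58.1 in R 4.3.3 (lmFit, eBayes, no trend, not robust) fitted 1 mean per group to all 6 arrays, and p-values were adjusted by Benjamini-Hochberg over all genes. The steps were tested on simulated data. All members are named, and up to 4 passing genes with the largest change per list and comparison with control. The members and lists were chosen with earlier results of these data known, and genes of the lists without a value were not analysed here. Alternatives comprised 3 normalizations, the variance model, the groups fitted and averaged probe sets. They also comprised a minimum mean of 5, the replicate number as a block and each array left out. The analysis of variance was run with adjusted and with unadjusted p. In its unadjusted form, which counts among the 17, passing meant an unadjusted p under 0.05.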

Additional observations from a re-analysis of the deposited data

How the results depend on the processing

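Of 510 values of the 10 members under 17 alternatives in 3 comparisons, 471 kept their side of the threshold or stayed short of it, 29 no longer passed, 10 came to pass, and no value past the threshold changed sign. Below the threshold signs did turn, as for BID in shp63 ON against control (-0.09 to 0.04) and BIK in shp63 ON against Nutlin-3 (-0.07 to 0.21). Not all of the 510 values were free to move. Leaving out an array of the third group repeated the fit of the 2 groups alone, and averaged probe sets left the log2 fold changes of the members unchanged. Values of the unadjusted analysis of variance were held to an unadjusted p. On that p, BCL2L11 (0.0375) and BIK (0.0412) were among those that came to pass, both for Nutlin-3 against control. With each array left out in turn, 1405 to 2991 genes passed for Nutlin-3 against control and 3 to 5 members, 3454 to 6960 genes for shp63 ON against control and 1 to 3 members, and 7356 to 8918 genes for shp63 ON against Nutlin-3 and 5 to 6 members, against 3410 and 5, 6670 and 3, and 9481 and 6 with all arrays. These fits have fewer arrays, and the lone array of a group is taken to vary like the others. The analysis of variance named in the design text, with no moderation and Benjamini-Hochberg adjustment, gave 1236 genes and 2 members for Nutlin-3 against control, 3003 genes and 1 member for shp63 ON against control, and 6089 genes for shp63 ON against Nutlin-3, where its 3 residual degrees of freedom set the precision. With arrays centred on their median, the Nutlin-3 split of 1774 higher and 1636 lower genes became 2175 and 1236. The replicate numbers were not shown to pair arrays: deviations of same-numbered arrays correlated at -0.06, -0.02 and 0.11. With the replicate block, 3097, 6530 and 9405 genes passed, with 5, 3 and 6 members.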
